A study of Mus musculus with 8 samples.

Results

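The RNase H and RNA decay nucleases described here are 9 mouse genes: Rnaseh1, Rnaseh2a, Rnaseh2b, Rnaseh2c, Xrn1, Xrn2, Dis3, Exosc10 and Dcp2. They were followed in C2C12 cells, a mouse myoblast line that grows as single cells and can be made to fuse into myotubes. The genes were picked with earlier results of these data known, and their probes by name alone, as every non-control probe that the array assigns to one of these gene symbols. The rule gave 29 probes for 9 of the 26651 gene symbols on the array. Of these, 26 probes, covering all 9 genes, had enough measured values to be tested. Proliferating C2C12 cells were transfected with Lipofectamine 2000, a lipid carrier, and antisense LNA GapmeRs against the long non-coding RNA Pvt1 (4 arrays, called silenced) or negative control GapmeRs (4 arrays, called control). All cultures were therefore exposed to a GapmeR and the lipid. RNA was taken from whole cultures labelled as biological replicates of the same line, and hybridised to one-colour microarrays of 56605 probes. In such RNA, fewer cells that make a transcript and less of it per cell cannot be told apart.

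An LNA GapmeR is a short antisense oligonucleotide with a DNA core and locked nucleic acid ends. When it pairs with its target RNA, RNase H1 cuts the RNA strand of the RNA:DNA hybrid. The nuclease XRN2 in the nucleus and XRN1 in the cytoplasm degrade RNA from the 5′ end, whereas the exosome, with its catalytic subunits DIS3 and EXOSC10, degrades it from the 3′ end. RNase H2, a complex of a catalytic subunit A with B and C subunits, removes ribonucleotides from DNA and resolves RNA:DNA hybrids. DCP2 removes the mRNA cap and so opens the 5′ end to XRN1. The labels name the GapmeRs Pvt1_1 and Pvt1_3, but do not tell which of them each silenced culture received or whether they were pooled. Their sequences are shown because they are the agents that separate the groups, written 5′ to 3′ in lower case.
Pvt1_1: accgtagtagagttaa
Pvt1_3: agtcaacgcttcacat
Each has 16 bases. The exact target site of neither occurred in any of the 56605 array probes. The longest stretch of either target site found in a member probe was 6 bases.

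The 60-base probes below are those that were lower in silenced cells, came from curated mRNA records and had at least one reading frame free of stop codons, as did 80.3% of all tested probes. They are shown so that each lower call can be placed in its transcript. Capitals mark the letters AATAAA or ATTAAA, the hexamers of poly(A) signals, searched on the transcript strand. Positions are those given by the array files for the mouse build mm9. No mm9 annotation was used here, so exons and untranslated regions were not assigned. Rnaseh1 probe 1 lies at chr12:29338077-29340496 (+ strand), with its bases mapped across a gap, and Rnaseh2a probe 3 lies at chr8:87483867-87483926 (- strand). Xrn1 probe 6 lies at chr9:95946013-95946072 (+). Xrn2 probes 1 and 2 lie at chr2:146853860-146853919 and chr2:146900658-146900717 (+). Exosc10 probes 1 and 2 lie at chr4:147949950-147950009 and chr4:147954469-147954528 (+).
Rnaseh1 probe 1: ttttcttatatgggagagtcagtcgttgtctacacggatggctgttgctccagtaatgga
Rnaseh2a probe 3: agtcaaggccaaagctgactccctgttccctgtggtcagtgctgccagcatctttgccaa
Xrn1 probe 6: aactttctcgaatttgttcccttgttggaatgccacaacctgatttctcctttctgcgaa
Xrn2 probe 1: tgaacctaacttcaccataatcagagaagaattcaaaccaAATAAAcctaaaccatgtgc
Xrn2 probe 2: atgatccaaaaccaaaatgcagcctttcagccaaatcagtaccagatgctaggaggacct
Exosc10 probe 1: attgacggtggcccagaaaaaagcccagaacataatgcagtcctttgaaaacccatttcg
Exosc10 probe 2: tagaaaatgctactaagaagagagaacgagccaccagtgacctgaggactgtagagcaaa
A hexamer occurred in 2 of the 26 tested member probes, Xrn2 probe 1 and Exosc10 probe 3, and in 14.9% of all tested probes. Probes are numbered from the 5′ to the 3′ end of each gene by genome position.

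Some facts of the arrays bear on every value. All 8 arrays came from 1 slide and 1 scan. One slide row held control arrays 1 to 3 with silenced array 1, and the other held control array 4 with silenced arrays 2 to 4. Silenced array 4 had 51.6% of spots positive and significant against 58.8% to 62.5% on the others, and control array 3 correlated least with its own group (mean r = 0.960 against 0.980 to 0.986 for the others). Pvt1 itself was lower at both tested probes. At the brighter one the log2 signal was 9.65, 9.79, 10.31 and 9.70 on control arrays 1 to 4 and 7.09, 6.69, 7.85 and 6.39 on silenced arrays 1 to 4, a difference of -2.86 (SE 0.32, limma adjusted p = 0.000682, exact two-sided permutation p = 0.0286, the smallest that 4 against 4 arrays allow). The other was well above background on all 4 control arrays and on 0 silenced arrays, and was at least 5.41-fold higher in control. Of 6 myoblast markers, 5 were well above background on all arrays and Myf5 on none. Myod1 fell (-1.95, SE 0.26, limma adjusted p = 0.00130), as did Des (-1.35) and Cdh15 (-0.86), whereas Vim (-0.17), Chrna1 (-0.30) and Myf5 (0.94) were not called. Of 5 markers of differentiated myotubes, 3 were well above background on all control arrays and 3 on all silenced arrays, and Acta1 (-1.88, limma adjusted p = 0.00128) and Mymk (-2.04, limma adjusted p = 0.000953) fell, the Mymk probe being well above background on 2 of 4 silenced arrays. Myh3 (-0.58) and Myog (0.13) were not called and Ckm was not tested. At Myog, control array 3 was at 4.96 and the other control arrays at 8.17 to 8.41. The silenced arrays lay between, at 6.83 to 7.89, so the Myog difference depends on control array 3. Of 4 hepatocyte markers, Alb and Mup1 were well above background on 4 silenced and 0 control arrays, Ttr on 3 silenced arrays and Apoa1 on none. Of 3 epithelial markers, Krt8 was above it on 3 silenced and 0 control arrays, with 1 of its 2 tested probes called higher, and Epcam and Krt18 on none. Of 3 leukocyte markers, Cd68 and Ptprc were above it on all 8 arrays and Lyz2 on none. Cd68 rose by 1.84 on the log2 scale (SE 0.22, limma adjusted p = 0.000799). Only 1 of the 7 Ptprc probes was tested, and its difference of 1.26 was not called (limma adjusted p = 0.0588). The part of these array and marker differences in the results below was not tested.

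By single probes, the most negative differences among the 9 genes were those of Exosc10, Xrn1 and Xrn2, and no member probe was called higher. By the mean over a gene's tested probes, Exosc10 (-1.37) and Xrn2 (-0.81) were the 2 of 9 that passed the test, where 13.8% of all 15217 genes were lower. Of the 26 tested member probes, 8 were lower in silenced cells (30.8%) at an adjusted p under 0.05, from 5 genes: Exosc10 and Xrn2 and Xrn1 with 2 probes each, Rnaseh1 and Rnaseh2a with 1 each. Over all 28649 tested probes, 18.4% were lower and 4.79% higher, so lower calls were common across the whole array. The silenced values all lay below every control value at 10 member probes, against 22.6% of all tested probes, and above every control value at 0 member probes, against 5.61%. The median difference was -0.47 over the member probes and -0.19 over all tested probes. Among members 25 of 26 differences were negative, as were 61.5% of all. These shares moved with the processing. Under the 75th percentile shift 4365 probes were lower and 7075 higher, with 18 of 26 member differences negative, 6 members lower and 1 higher. Without the mask on dim spots 4787 were lower and 4990 higher, with 22 of 29 member differences negative. Without silenced array 4 the counts were 5287 and 3572, with 21 of 27 negative. With control array 3 and silenced array 4 left out, 8 member probes were lower, the same ones, and 1, Rnaseh2c, was higher. With slide row as a block 4 remained, namely both Exosc10 probes, Xrn2 probe 1 and Xrn1 probe 6. All 8 differences were negative within each slide row.

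**Figure D1:**
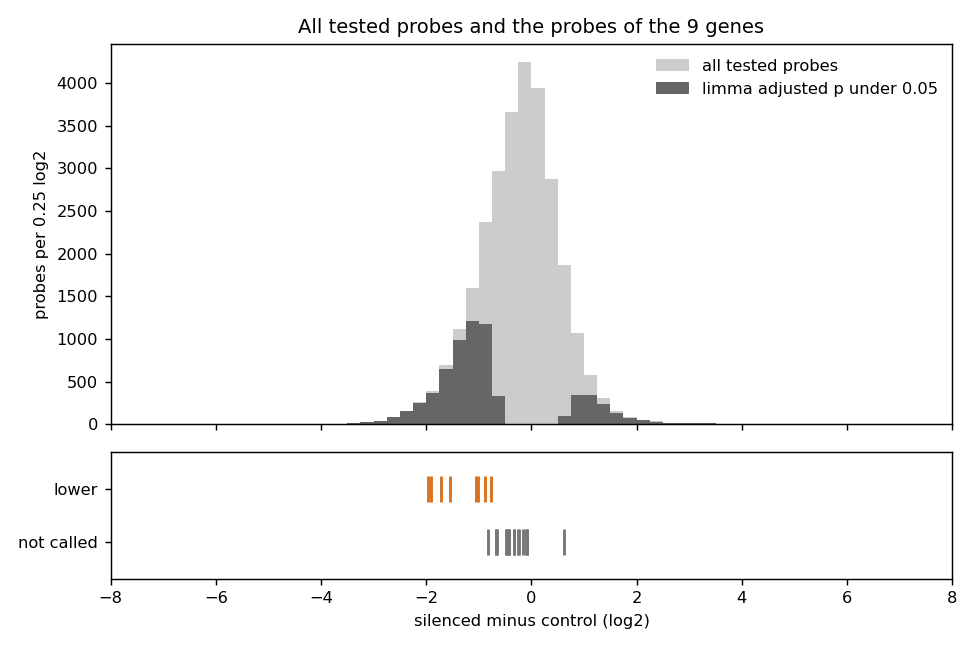
Distribution of the silenced minus control difference (log2) over 28649 tested probes, as the number of probes per 0.25 log2, with probes past the limma threshold in dark grey. Ticks under it mark the 8 member probes called lower, between -1.96 and -0.77, and the 18 that were not called, 1 of which is above 0.

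**Figure D2:**
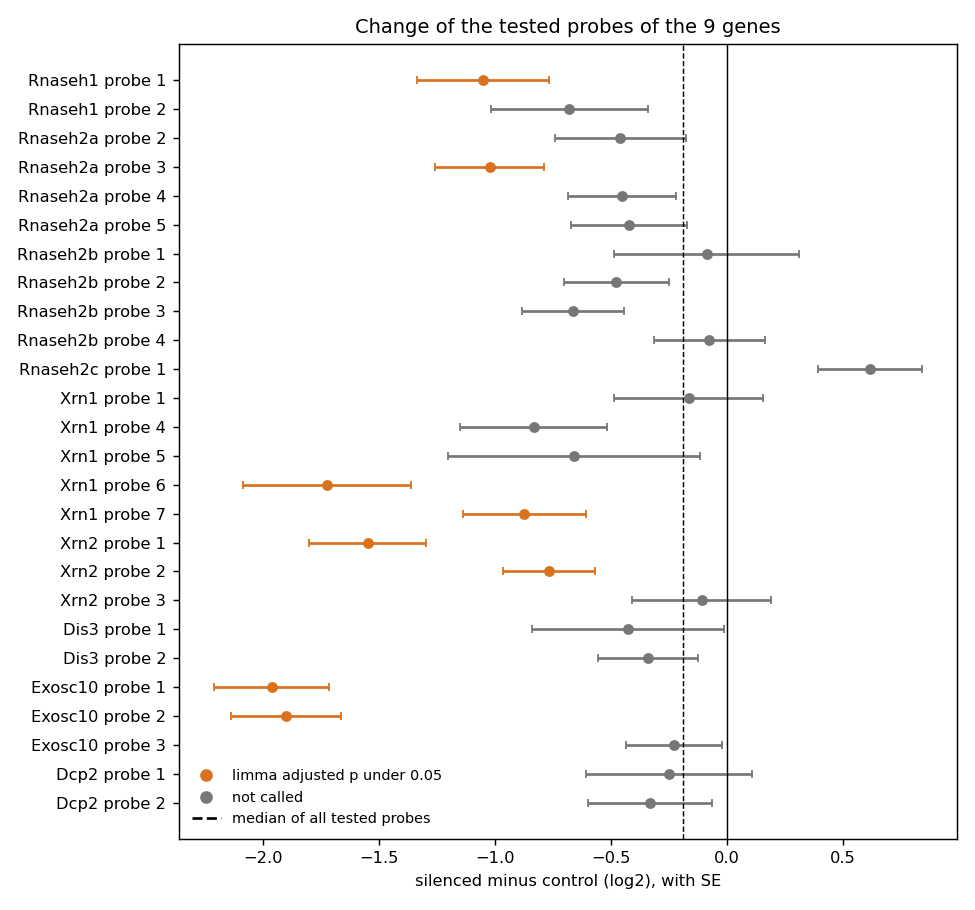
Difference between silenced and control arrays (log2, points) with its standard error (bars) for each of the 26 tested member probes, numbered 5′ to 3′ within a gene. Orange marks the 8 probes with a limma adjusted p under 0.05, and the dashed line is the median of all tested probes, -0.19.

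RNase H1, the enzyme that cuts the target of a GapmeR, was measured by 2 probes of Rnaseh1, of which 1 was lower. At probe 1 the log2 signal was 7.58, 8.17, 7.79 and 8.09 on control arrays 1 to 4 and 7.27, 7.20, 6.84 and 6.12 on silenced arrays 1 to 4. Every silenced value was below every control value, with silenced array 4 the lowest. The difference was -1.05 (SE 0.29, limma adjusted p = 0.0262), a silenced level of 48.2% of control. Probe 1 was well above background on 3 of 4 silenced arrays. The call was lost in 7 of 21 alternatives, among them the slide row block (adjusted p = 0.112) and without control array 2, control array 4 or silenced array 3. Probe 2, at chr12:29344036-29344095, gave 10.39, 10.58, 10.95 and 10.58 on control arrays and 10.19, 10.45, 10.26 and 8.88 on silenced arrays. Silenced array 4 stood far below the other silenced arrays, which overlapped the control range. The difference of -0.68 (SE 0.34, limma adjusted p = 0.179) did not pass the test, and it was -0.33 without silenced array 4. The Rnaseh1 mean over both probes differed by -0.87 (limma adjusted p = 0.0707 over 15217 genes).

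Over all 8 arrays, the probes most like Rnaseh1 probe 2 in profile were those of Opa1, a mitochondrial fusion GTPase (Pearson r = 0.999), Dusp8, a MAP kinase phosphatase (r = 0.997), and Papd7, a non-canonical poly(A) polymerase (r = 0.997). This is a description over 8 arrays, and Rnaseh1 probe 2 and these probes all had their lowest value on silenced array 4. Of the 21575 probes compared, 7.18% had an r above 0.9.

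Among the RNase H2 subunits, a single Rnaseh2a probe passed the test. For Rnaseh2a, the catalytic subunit, 1 of 4 tested probes was lower. Probe 3 gave 11.86, 11.97, 12.60 and 12.06 on control arrays and 11.29, 11.34, 10.75 and 11.01 on silenced arrays. The groups were separate, and control array 3 and silenced array 3 lay farthest apart. The difference was -1.02 (SE 0.24, limma adjusted p = 0.0132), a level of 49.2% of control. Probe 3 was not called with the slide row block (-0.94, adjusted p = 0.0770) or under a 75th percentile scaling (-0.66, adjusted p = 0.0648). The other 3 tested probes, 1 on the 5′ and 2 on the 3′ side, differed by -0.46, -0.46 and -0.42 (limma adjusted p from 0.190 to 0.274) with overlapping groups. Probes 4 and 5 share part of their target. Probe 1 was not tested, having measured values on only 3 control and 2 silenced arrays.

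None of the 4 Rnaseh2b probes, for the B subunit, was called. Across the alternatives, probe 3 passed in 5 of 21, bringing the members called lower to 9 in 4 settings. This probe, at chr14:62982889-62982948, had 11.55, 11.80, 12.32 and 11.80 on control arrays and 11.17, 11.26, 11.40 and 10.98 on silenced arrays. These values did not overlap, and the difference was -0.66 (SE 0.22, limma adjusted p = 0.0544). Probe 2, at chr14:62980223-62982877, differed by -0.48 (SE 0.23, limma adjusted p = 0.159), also without overlap. Probes 1 and 4, at the ends of the measured stretch, differed by -0.09 (SE 0.40) and -0.08 (SE 0.24).

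Rnaseh2c, the C subunit, was the one member with a positive difference. Its single probe, at chr19:5602861-5602920, gave 12.83, 12.86, 13.40 and 13.19 on control arrays and 13.81, 13.69, 13.92 and 13.32 on silenced arrays. Silenced array 4 lay inside the control range and the other 3 silenced arrays above it. The difference was 0.62 (SE 0.22, limma adjusted p = 0.0740). It was past the threshold in 9 of 21 alternatives, including both other scalings tried, and without silenced array 4 or control array 3. Whether its difference departs from that of Rnaseh2a was not tested.

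**Figure D3:**
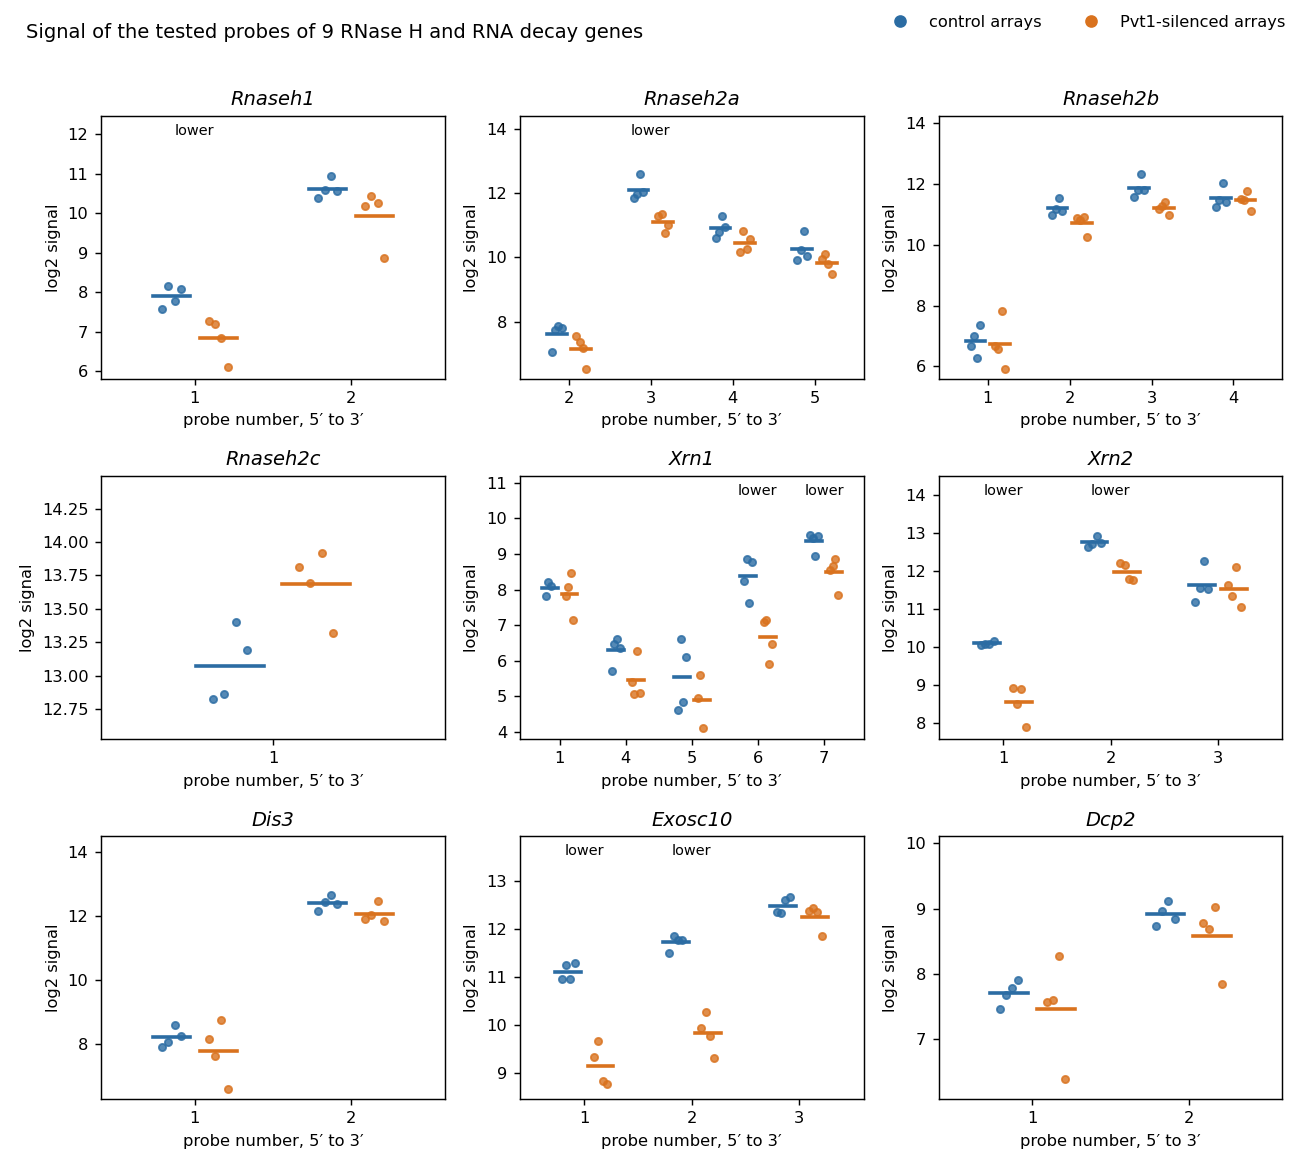
Quantile-normalised log2 signal of every tested probe of the 9 genes, one panel a gene with its own axis, probes numbered 5′ to 3′. Points are arrays (4 control in blue, 4 silenced in orange; masked values are absent), bars are group means and "lower" marks a limma adjusted p under 0.05; Exosc10 and Xrn2 have separate groups at probes 1 and 2 and overlapping groups at probe 3.

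Xrn2, the nuclear 5′ to 3′ exonuclease that also acts in transcription termination, was lower at 2 of 3 probes. Probe 1 gave 10.05, 10.08, 10.09 and 10.16 on control arrays and 8.91, 8.49, 8.90 and 7.89 on silenced arrays. The control values lay close together, and every silenced array was at least 1 log2 unit below them. The difference was -1.55 (SE 0.25, limma adjusted p = 0.00298), a level of 34.2% of control. Probe 2 gave 12.62, 12.72, 12.94 and 12.74 against 12.21, 12.17, 11.78 and 11.77. Here too the groups were apart, with a difference of -0.77 (SE 0.20, limma adjusted p = 0.0213). That call was lost in 7 of 21 alternatives, among them the slide row block (-0.69) and the 75th percentile scaling (-0.33), and without control array 2, control array 4 or silenced array 3. Probe 3, at chr2:146903611-146903670, gave 11.19, 11.57, 12.27 and 11.54 against 11.63, 11.35, 12.10 and 11.05. The ranges overlapped nearly fully, and the difference was -0.11 (SE 0.30, limma adjusted p = 0.831). The mean of the 3 probes differed by -0.81 (limma adjusted p = 0.0334).

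Xrn1, the cytoplasmic counterpart, had 7 probes from several transcript records, of which 5 were tested and 2 were lower. Probe 6 gave 8.24, 8.87, 7.62 and 8.78 on control arrays and 7.08, 7.16, 5.91 and 6.47 on silenced arrays. The groups did not overlap, and control array 3 was the lowest control. The difference was -1.72 (SE 0.36, limma adjusted p = 0.00898), a level of 30.3% of control. Probe 6 was well above background on 3 of 4 silenced arrays, and it was not called in the authors' table (-1.39) or without the mask on dim spots (-1.40). Probe 7, at chr9:95957773-95957832, gave 9.53, 9.46, 8.94 and 9.51 against 8.56, 8.67, 8.86 and 7.86. Control array 3 was only just above silenced array 3, and the difference was -0.87 (SE 0.26, limma adjusted p = 0.0390). This call was the least stable of the 8, passing in 9 of 21 alternatives. It was lost on leaving out control array 1, 2 or 4, or silenced array 1 or 2.

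The remaining Xrn1 probes were dim or did not pass. Probe 4, at chr9:95911710-95911992, was well above background on 3 control arrays and 0 silenced arrays, which bounds control at no less than 1.07-fold above silenced. Its fitted difference was -0.83 (SE 0.32, limma adjusted p = 0.0866). Probe 5 was well above background on 1 control array alone and differed by -0.66 (SE 0.54). Probe 1, from another transcript record, differed by -0.17 (SE 0.32). Probe 2 had no measured value on any array and probe 3 on only 2 control arrays, so neither was tested. The mean over the tested Xrn1 probes differed by -0.68 (limma adjusted p = 0.15).

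Exosc10, the nuclear exosome subunit also called RRP6, changed most among the members. Probe 1 gave 10.95, 11.25, 10.96 and 11.29 on control arrays and 9.33, 9.67, 8.83 and 8.76 on silenced arrays. The lowest control and the highest silenced array were more than 1 log2 unit apart. The difference was -1.96 (SE 0.25, limma adjusted p = 0.00103), a level of 25.6% of control. Probe 2 gave 11.50, 11.86, 11.77 and 11.78 against 9.94, 10.27, 9.77 and 9.32. It showed the same separation, with a difference of -1.90 (SE 0.24, limma adjusted p = 0.000988) and 26.8% of control. Within the row of 3 control arrays and the row of 3 silenced arrays, the probe 1 difference was -1.72 and -2.20, and the probe 2 difference -1.77 and -1.99. Both probes were lower in 20 of 21 alternatives, the exception being the unequal-variance test with Bonferroni adjustment. Probe 3, at chr4:147956434-147956493, holds a poly(A) hexamer and gave 12.36, 12.33, 12.61 and 12.66 against 12.37, 12.44, 12.36 and 11.87. Silenced array 4 was the lowest and the other 3 lay within the control range. The difference was -0.23 (SE 0.21, limma adjusted p = 0.467).

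Dis3, the other catalytic exosome subunit, had no called probe. Probe 2, at chr14:99476505-99476564, gave 12.15, 12.43, 12.66 and 12.35 against 11.90, 12.03, 12.45 and 11.84, a difference of -0.34 (SE 0.21, limma adjusted p = 0.287). The groups overlapped, as at probe 1, where the difference was -0.43 (SE 0.41) and silenced array 4 was lowest. The decapping enzyme gene Dcp2 also had no called probe. Its probes differed by -0.25 (SE 0.36) and -0.33 (SE 0.27), and at both silenced array 4 was below every control array while silenced array 3 was within or above the control range.

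Because the probes of a gene disagreed, the most 5′ and most 3′ tested probes were compared within each array for the 8 members with at least 2 tested probes. The quantity is the 5′ signal minus the 3′ signal on the log2 scale. A constant scaling of an array cancels in it, whereas masks, background correction and intensity-dependent scaling do not. For Exosc10 it went from -1.38 ± 0.24 in control to -3.11 ± 0.31 in silenced arrays (SD, n = 4 each), a shift of -1.73 (SE 0.22, limma adjusted p = 0.000830 over 6091 genes). For Xrn2 it went from -1.54 ± 0.44 to -2.98 ± 0.23, a shift of -1.44 (SE 0.26, limma adjusted p = 0.00298). In both genes all silenced arrays lay below all control arrays.

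Xrn1 shifted the other way, by 0.85 (SE 0.21, limma adjusted p = 0.0154), between probes of different transcript records, and with 3 control values because control array 3 had none at probe 1. This call was lost in 4 of 19 alternatives. With only probes measured on all 8 arrays, probe 1 drops out, and the difference between the remaining end probes shifted by 0.040. Rnaseh1 shifted by -0.37 (SE 0.24, limma adjusted p = 0.25). Rnaseh2a, Rnaseh2b, Dis3 and Dcp2 shifted by -0.04, -0.01, -0.09 and 0.08, with standard errors from 0.21 to 0.40. The end probes of Rnaseh1, Rnaseh2a, Rnaseh2b and Dis3 also came from different transcript records. Only for Exosc10, Xrn2 and Dcp2 did both come from the same record. A shift to less 5′ signal was common on these arrays: 31.7% of the 6091 genes with such a pair had it and 7.11% had the opposite, with a median of -0.43. Among members it was 2 of 8. The most 5′ probe was lower in 3 of these 8 members (Rnaseh1, Xrn2 and Exosc10) and in 27.8% of all 6091 genes. The most 3′ probe was lower in 1 (Xrn1) and in 13.3% of all. Over all tested probes, those with a poly(A) hexamer had a median difference of 0.17 and those without one -0.26. The part of probe position in the single-probe results was not tested.

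**Figure D4:**
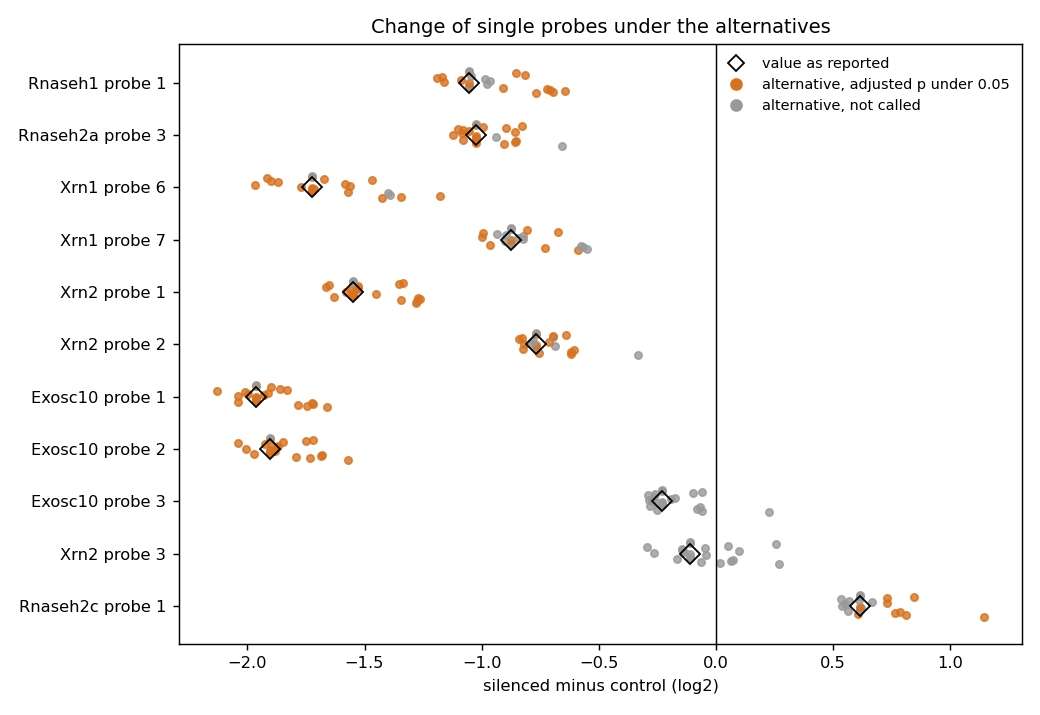
Silenced minus control difference (log2) of the 8 member probes called lower and of 3 uncalled probes, under each processing alternative (points, orange where the adjusted p is under 0.05). Diamonds are the values as reported; both Exosc10 probes stay between -2.13 and -1.57, while Xrn2 probe 3 and Exosc10 probe 3 fall on both sides of 0.

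Other genes of RNA decay were read from 8 lists with 135 genes in all, each gene by its brightest probe. The lists too were chosen with earlier results known. Of 134 tested, 30 were lower and 2 higher. By the same measure 13.2% of all 15217 genes were lower and 6.61% higher. The lists' median difference was -0.17 and that of all genes -0.05. These counts moved with the processing: leaving out arrays gave 11 to 36 lower and 0 to 19 higher, no mask gave 20 higher, and the 75th percentile shift gave 15 lower and 33 higher, with a median of all tested probes of 0.16 in place of -0.19.

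Nonsense-mediated decay, which removes mRNAs with early stop codons, had 6 of 14 genes lower and 0 higher. They included Upf1, its helicase (-1.61, SE 0.31, limma adjusted p = 0.00654), its partner Upf2 (-0.91) and Eif4a3, a core exon junction protein (-1.03). Proteins known to bind therapeutic oligonucleotides had 7 of 17 lower and 0 higher. Among them were nucleolin, Ncl (-0.95, SE 0.19, limma adjusted p = 0.00670), the chaperone Hsp90aa1 (-0.96), Hmgb1 (-0.97) and the paraspeckle protein Sfpq (-0.95).

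The exosome and its cofactors had 4 of 23 genes lower and 0 higher. These were the cap subunit Exosc1 (-1.09, SE 0.19, limma adjusted p = 0.00409), the ring subunits Exosc4 (-0.75) and Exosc8 (-0.67), and Mtrex, the nuclear exosome helicase (-0.80), which the array names Skiv2l2. Among other ribonucleases, 6 of 23 tested were lower. They included Eri3, of the 3′ exonuclease family of Eri1 (-1.58, SE 0.29, limma adjusted p = 0.00490), Noct, named Ccrn4l on the array (-0.97), the Argonaute slicer Ago2, named Eif2c2 on the array (-0.74), and the cleavage endonuclease Cpsf3 (-0.67).

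Factors that act on RNA:DNA hybrids had 3 of 13 lower and 1 higher. The helicase Ddx19a fell furthest (-2.64, SE 0.29, limma adjusted p = 0.000629), followed by Thoc1 of the mRNA export complex THO (-1.18) and the topoisomerase Top1 (-0.74). Trex1, a 3′ DNA exonuclease, was higher (0.81, SE 0.22, limma adjusted p = 0.0269). In deadenylation, 3 of 20 were lower, the CCR4-NOT subunits Cnot10 (-0.93) and Cnot9 (-1.49) and the nuclease Parn (-1.27), and Tob1, which recruits CCR4-NOT, was higher (2.07, SE 0.62, limma adjusted p = 0.0377). Control array 3 was at 4.86 for Tob1 against 7.39 to 8.04 on the other control arrays, and without it the difference was 1.32 (limma adjusted p = 0.00667). Cnot9 was named after its values were seen, its groups overlapped (control array 3 at 9.12, silenced array 2 at 9.24) and its alternatives were not run. Decapping had 1 of 19 lower, Dcp1a, the activating partner of DCP2 (-1.21, SE 0.27, limma adjusted p = 0.0111), and the partners of XRN2 had 0 of 5 lower and 0 higher. Counted by all tested probes instead, 3 of 10 probes of the XRN2 partners were lower, 2 of Pcf11 and 1 of Ttf2, and 73 of 276 probes over all lists were lower and 3 higher. By that count, 18.4% of all 28649 tested probes were lower and 4.79% higher.

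The list calls were not equally firm. Ddx19a, Thoc1, Parn, Exosc1, Eif4a3, Upf1, Ncl and Eri3 were called in 20 of 21 alternatives, and Dcp1a and Hsp90aa1 in 18. The call was lost in 7 for Mtrex and Noct, in 8 for Cnot10 and Hmgb1, and in 9 for Exosc8, Sfpq, Trex1 and Tob1. It was lost in 10 for Upf2, Top1 and Ago2, and in 11 for Exosc4 and Cpsf3. The 13 genes that lost it in 7 or more did so with the slide row block, and, except for Tob1, on leaving out control array 2 or control array 4. None of these genes changed sign. Dcp1a, the only gene called in the decapping list, and Hsp90aa1 also lost their call with the slide row block (adjusted p = 0.0543 and 0.0638). The number lower ranged over the alternatives from 1 to 6 in the exosome list, 3 to 6 in nonsense-mediated decay and 1 to 8 among oligonucleotide-binding proteins.

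**Figure D5:**
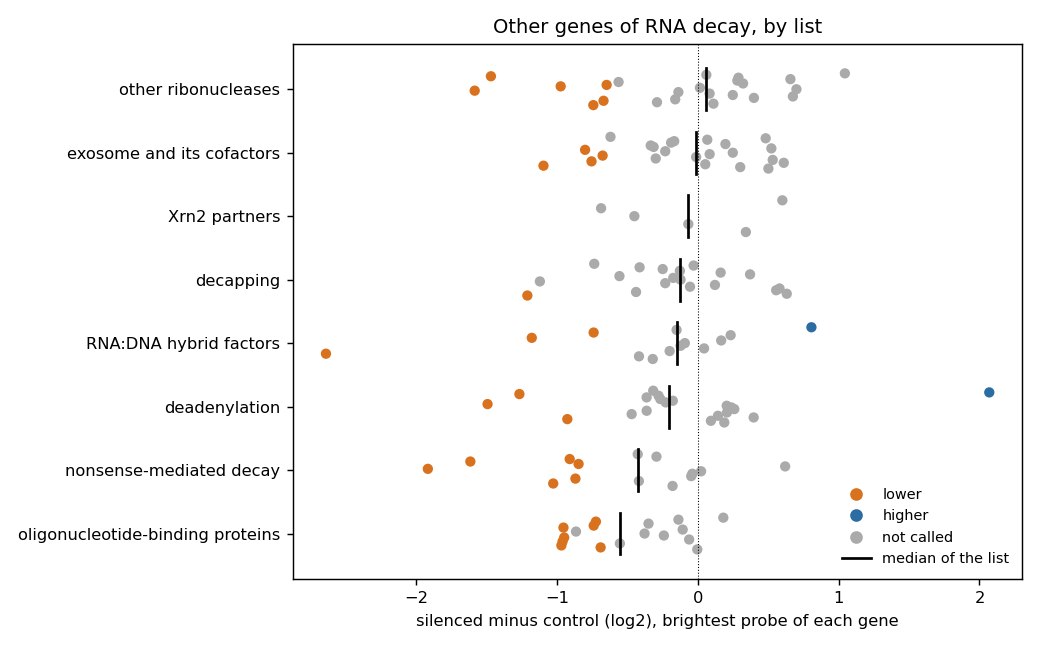
Silenced minus control difference (log2) of 134 tested genes in 8 lists of RNA decay, one point a gene by its brightest probe, with the median of each list as a bar. Orange marks the 30 genes called lower and blue the 2 called higher (limma adjusted p under 0.05).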

How the data were processed

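Total RNA of 8 C2C12 cultures (4 silenced, 4 control) was labelled with Cy3 and read on Agilent one-colour arrays. The deposited intensity values are those of Feature Extraction, background-corrected per the file headers (version 12.0.0.7 in the headers, 10.7.3.1 in the submitters' processing notes). The authors' table of processed intensities, deposited for the series, was put on the log2 scale and used as an alternative. Its columns share the same median and quartiles, and no mask on dim spots was applied to it here. It gave 45736 tested probes, against 56600 from the scanner files without a mask. The reason for the smaller number was not tested. Groups came from the sample labels. From the scanner files, control spots and outlier-flagged spots were left out, spots not positive and significant were masked, as in the study's methods, and log2 signals were quantile-normalised and averaged by probe. Probes with at least 3 of 4 values per group were tested with limma (version 3.58.1, R 4.3.3), with Benjamini-Hochberg adjustment over all 28649 tested probes and a threshold of 0.05. A probe on several spots was taken as well above background where at least as many of its spots were as were not. A bound ("at least") was set against the lowest signal among such probes on each array. Gene means over tested probes and 5′ minus 3′ differences were fitted in the same way. On simulated data with 28649 probes for the same comparison, 60.0% of changes of 2 log2 units and 5.00% of changes of 1 were called, with 2 unchanged probes called. Only 100 simulated probes carried each size of change, whereas 5269 probes were called lower and 1373 higher in the data. The adjustment was therefore stricter in the simulation, and these shares do not measure how often such changes are called here. The number of arrays limits precision, and each p-value measures the spread between these cultures of one line.

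The member genes, gene lists and markers were chosen with earlier results of these data known. Named are all member probes, tested Pvt1 probes, up to 4 genes a list with the largest change among those called, measured on all 8 arrays and without overlap between groups, and the 3 probes most correlated with the brightest Rnaseh1 probe. A gene that this rule names is not reported here. All 9 member symbols matched the RefSeq gene table. Alternatives were the 75th percentile shift, cyclic loess, normexp background (offset 50), the authors' table, no mask, stricter masks, the replicate block, slide row, a robust trended prior, a two-sided unequal-variance test per probe (the study's methods give a permutation-based, Bonferroni-adjusted test for its fibre comparison, which was not run here), gene means and leaving out each array. Leaving out control array 3 together with silenced array 4 was chosen after seeing the data. Figures were drawn with matplotlib 3.10.9.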

Additional observations from a re-analysis of the deposited data

Results flagged for a closer look

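In 7 of 120 groups of 4 arrays tested, 1 array lay far from the others by Dixon's test, and chance flags about 1 in 20 groups. Silenced array 4 was that array in 5 of them. Its log2 signal was 8.88 at Rnaseh1 probe 2, where the other silenced arrays gave 10.19 to 10.45. It was 10.26 at Rnaseh2b probe 2, against 10.82 to 10.90, and 11.87 at Exosc10 probe 3, against 12.36 to 12.44. Silenced array 4 also had fewer spots that were positive and significant (51.6%, against 59.8% to 61.0%) and fewer that were well above background (36.8%, against 42.6% to 43.2%). Control array 1 gave 7.05 at Rnaseh2a probe 2, against 7.75 to 7.85 on the other control arrays. Control array 3 gave 8.94 at Xrn1 probe 7, a probe called lower in silenced cells, against 9.46 to 9.53.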

How the results depend on the processing

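Both Exosc10 probes, Xrn2 probe 1 and the 5′ minus 3′ shifts of Exosc10 and Xrn2 kept their direction under every alternative run, and Exosc10's 2 probes were lower in 20 of 21. Leaving out 1 array, or control array 3 and silenced array 4 together, gave 5 to 8 member probes lower and 0 to 1 higher, 2995 to 6977 probes lower and 684 to 5341 higher in all, 11 to 36 list genes lower and 0 to 19 higher, and 325 to 680 genes with a 5′ minus 3′ shift above 0. The fewest member calls, 5, came without control array 2 or control array 4. Without silenced array 4 alone, 5287 probes were lower and 3572 higher. Deviations of arrays with the same replicate number correlated at -0.04, 0.19, 0.22 and 0.06 for numbers 1 to 4, so the pairing did not hold for every number. With the replicate block 3994 probes, 5 member probes and 15 list genes were lower, and 1023 probes higher. The slide row block gave 2572 probes lower and 534 higher, 4 member probes lower, 9 list genes lower and 0 higher, and 277 genes with a 5′ minus 3′ shift above 0. The 75th percentile shift gave 7075 probes higher, 38.2% of calls being lower against 79.3%, with 1 member higher and 15 list genes lower and 33 higher. Cyclic loess gave 5416 probes higher (49.3% of calls lower), 1 member higher and 22 list genes higher. The authors' table gave 4633 probes higher (49.7% lower), 1 member, 20 list genes and 658 genes with a 5′ minus 3′ shift above 0. Without a mask these were 4990 (49.0% lower), 1, 20 and 652. Normexp background and the robust trended prior each gave 1 member and 4 list genes higher. A two-sided unequal-variance test per probe, without permutation, gave 2854 probes lower, 566 higher and 5 members lower with Benjamini-Hochberg adjustment, and 3 lower, 3 higher and 0 members with Bonferroni, where the Pvt1 difference of -2.86 did not pass. Gene means gave 2 of 9 members lower, against 13.8% of all genes. The cause of these differences was not tested.

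Differences that changed sign were all uncalled. Under the 75th percentile shift they were 0.22 and 0.29 for Rnaseh2b probes 1 and 4, 0.077 for Xrn1 probe 1, 0.27 for Xrn2 probe 3, 0.11 for Dis3 probe 2, 0.23 for Exosc10 probe 3 and 0.037 for Dcp2 probe 1. Cyclic loess, the authors' table and no mask gave Rnaseh2b probe 1 0.24, 0.26 and 0.25, Rnaseh2b probe 4 0.048, 0.10 and 0.11, Xrn1 probe 1 0.18, 0.17 and 0.16, Xrn2 probe 3 0.020, 0.066 and 0.074, and Dcp2 probe 1 0.12, 0.10 and 0.090. The same 3 settings gave 5′ minus 3′ shifts of 0.20, 0.16 and 0.14 for Rnaseh2b and 0.12, 0.11 and 0.084 for Dis3. Rnaseh2a shifted by 0.15 under cyclic loess and 0.052 under normexp, and Dis3 by 0.014 under normexp and 0.067 with slide row, where Dcp2 shifted by -0.036. The stricter mask gave 0.10 for the Rnaseh2b shift and 0.089 for its probe 1. With arrays left out, the shifts ranged from -0.35 to 0.21 for Rnaseh2b, -0.58 to 0.093 for Rnaseh2a, -0.050 to 0.19 for Dcp2 and -0.28 to 0.28 for Dis3. Single probes ranged from -0.45 to 0.19 and -0.18 to 0.21 for Rnaseh2b probes 1 and 4, -0.29 to 0.26 for Xrn2 probe 3, -0.37 to 0.076 for Xrn1 probe 1, -0.53 to 0.13 for Dcp2 probe 1 and -0.75 to 0.10 for Dis3 probe 1.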
